A study of Rattus norvegicus with 6 samples.

Results

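The enzymes that modify and crosslink collagen were followed at the transcript level in cultured cardiac fibroblasts after an antagomiR against miR-142-3p. AntagomiRs are synthetic antisense oligonucleotides, modified for stability, which pair with a mature microRNA and block its action. The set held 10 genes, taken by symbol from the 30560 genes of the deposited table. They were the prolyl 4-hydroxylase subunit genes P4ha1, P4ha2 and P4ha3, the lysyl hydroxylase genes Plod1, Plod2 and Plod3, and the lysyl oxidase genes Lox, Loxl1, Loxl2 and Loxl3. All 10 were found once and all 10 passed the filter on low values.

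The comparison had 2 groups of 3 libraries. The antagomiR group and the NC group were primary fibroblasts (NRCFs in the labels) from ventricles of newborn Sprague-Dawley rats aged 1 to 2 days, kept for their fast attachment to the dish and held without serum overnight. Both were transfected with 50 nM of oligonucleotide by the same lipid reagent, one with miR-142-3p antagomiR and the other with NC, the negative control. Nothing in the labels says that the 3 libraries of a group came from separate isolations, so the p-values here reflect no more than the spread among these libraries, which may be technical.

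Fibrillar collagen is modified in a fixed order. In the endoplasmic reticulum prolyl 4-hydroxylase converts prolines to hydroxyproline, which lets the triple helix hold at body temperature, and lysyl hydroxylases convert lysines to hydroxylysine, which carries sugars and shapes later crosslinks. Outside the cell, the copper-dependent lysyl oxidases turn lysine and hydroxylysine into aldehydes that join collagen and elastin molecules. In the heart these crosslinks are known for their part in the stiffness of scar and fibrotic tissue.

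The microRNA that the antagomiR targets is shown because its seed guides which transcripts it can recognise. Matches to the seed in the 10 genes were not searched. In the mature rat sequence from RefSeq (build GRCr8, plus strand of chromosome 10), the capitals mark the seed, bases 2 to 8.
rno-miR-142-3p: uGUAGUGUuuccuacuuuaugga
The promoters of the 3 prolyl 4-hydroxylase genes are shown because these paralogues moved in opposite directions. Each runs from 250 bases before the start of the gene to 50 after it, from RefSeq, build GRCr8, on the plus strand. The capitals mark ACGTG or GCGTG on either strand, the core letters of the hypoxia response element, with overlapping matches counted separately.
P4ha1, chr20:27844796-27845095: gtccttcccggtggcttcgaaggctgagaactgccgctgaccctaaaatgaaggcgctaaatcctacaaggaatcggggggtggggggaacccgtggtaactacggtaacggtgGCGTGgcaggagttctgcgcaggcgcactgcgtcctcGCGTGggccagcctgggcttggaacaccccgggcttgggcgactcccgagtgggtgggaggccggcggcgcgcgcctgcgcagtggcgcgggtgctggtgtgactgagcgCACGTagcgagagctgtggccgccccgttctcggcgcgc
P4ha2, chr10:38743644-38743943: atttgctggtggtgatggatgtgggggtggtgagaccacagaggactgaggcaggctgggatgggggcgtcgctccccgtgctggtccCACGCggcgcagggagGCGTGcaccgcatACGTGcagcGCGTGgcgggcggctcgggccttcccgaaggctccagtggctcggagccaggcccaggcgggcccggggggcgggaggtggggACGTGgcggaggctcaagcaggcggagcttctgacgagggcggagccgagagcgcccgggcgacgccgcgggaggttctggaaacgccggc
P4ha3, chr1:164040614-164040913: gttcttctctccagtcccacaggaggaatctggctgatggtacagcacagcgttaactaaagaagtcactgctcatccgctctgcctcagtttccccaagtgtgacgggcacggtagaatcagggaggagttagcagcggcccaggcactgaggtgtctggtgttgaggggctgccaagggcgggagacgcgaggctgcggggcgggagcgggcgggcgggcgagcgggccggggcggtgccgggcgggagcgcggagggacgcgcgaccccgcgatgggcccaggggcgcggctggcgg

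The P4ha2 window held 5 matches, that of P4ha1 3 and that of P4ha3 0. Of the 33469 promoters of this length in the table, 41.6% held either motif, 8.15% held 3 or more matches and 1.52% held 5 or more. Promoters were matched for 8 of the 10 genes, all but Lox and Loxl2. Plod2 had 4 matches, Plod3 2, Plod1 and Loxl3 1 each, and Loxl1 0. These counts describe letters in the window and say nothing of factor binding.

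Library totals, recovered from the FPKM values, ran from 22215475 to 24622667 fragments with the antagomiR and from 19472409 to 24248843 in NC. FPKM are fragments scaled to gene length and to the total of the library, so levels of different genes can be set side by side. Each member was counted from 814 to 38568 fragments in a library, and none lay near the value of 3 fragments on 1 kb, at most 0.154 FPKM. That floor covers counting error only. The precursor gene Mir142 was at 2.84, 1.83 and 3.15 FPKM with the antagomiR, against 2.78, 1.11 and 1.37 FPKM in NC. PolyA libraries do not measure the mature microRNA, so the silencing itself was not checked by these values. NC replicate 3 stood apart in leukocyte transcripts, with a summed level of 15 leukocyte markers of 770.2 FPKM, against 151 and 224 FPKM in the other NC libraries and 1005 to 1121 FPKM with the antagomiR.

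Most of the collagen-modifying enzymes were lower with the antagomiR, and P4ha2 alone of the 10 was called higher. By limma on log2(FPKM + 1), with Benjamini-Hochberg adjustment over 12024 tested genes and calls at an adjusted p under 0.05, 7 of the 10 fell, 1 rose and 2 were not called. Over all tested genes 26.7% were called, 9.21% as fallen and 17.5% as risen. The risen share of all calls was 65.6%, against 51.4% with median-ratio scaling and 43.1% with quantile normalization, which shifted the median of all genes by -0.11. The median log2 fold change of the 10 was -0.30, and that of all tested genes was 0.06. In these bulk cultures, fewer cells of a type and less RNA per cell cannot be told apart. Lysyl oxidases had a median log2 fold change of -0.58, prolyl 4-hydroxylases of -0.28 and lysyl hydroxylases of -0.26. The difference between the families was not tested, since genes are not replicates. Without NC replicate 3, 8 of the 10 were called, 7 as fallen, in a fit that called 40.4% of all genes, 26.5% as risen and 13.9% as fallen. The ranges of the groups were apart for 9 of the 10, 8 below and 1 above NC, against 44.6% of all tested genes, 15.4% below and 29.2% above.

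**Figure D1:**
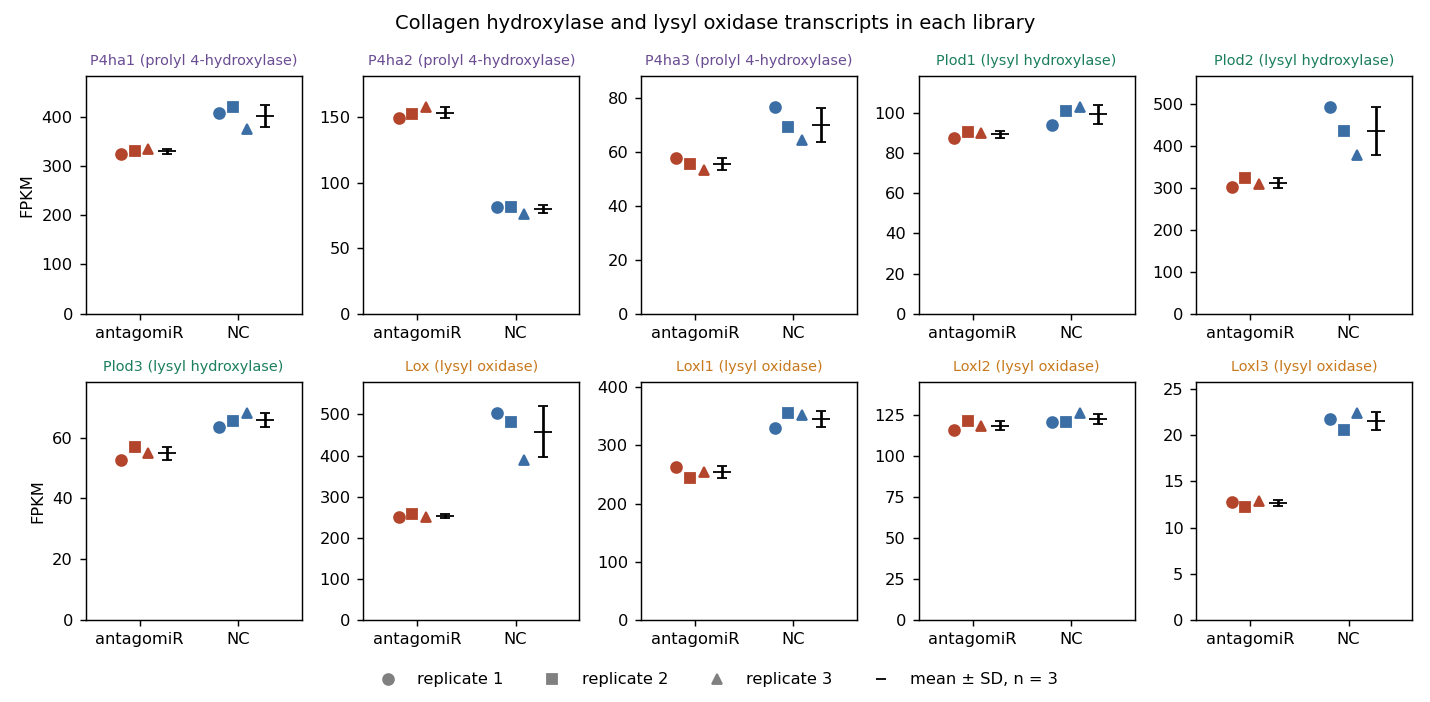
FPKM of each of the 10 genes in the 3 antagomiR libraries (left, red) and the 3 NC libraries (right, blue), with the mean ± SD of each group in black; every axis starts at 0. The groups are apart in every panel but that of Loxl2, and P4ha2 is the panel in which the antagomiR libraries lie higher.

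Prolyl 4-hydroxylase is built from catalytic alpha subunits, which the P4ha genes encode, and the beta subunit P4hb, a protein disulphide isomerase. P4ha1 (ENSRNOG00000050655, chr20:27302141-27352786 in mRatBN7.2), the most abundant alpha subunit here, was at 324, 331 and 334 FPKM in antagomiR replicates 1 to 3, against 407, 420 and 376 FPKM in NC replicates 1 to 3. The antagomiR libraries lay close together and below every NC library, of which NC replicate 3 was the lowest. P4ha1 averaged 329.9 ± 5.13 FPKM with the antagomiR and 401 ± 22.8 FPKM in NC (SD, n = 3 each), a log2 fold change of -0.28 (standard error 0.06, limma adjusted p = 0.0152). The call was lost without antagomiR replicate 1, 2 or 3 (limma adjusted p = 0.0684, 0.0611 and 0.0662), without NC replicate 2 (0.063) and with quantile normalization (0.0949).

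P4ha2 (ENSRNOG00000033663, chr10:38243139-38287314), the second alpha subunit isoform, was at 149.6, 153 and 158 FPKM with the antagomiR, against 81.3, 81.7 and 76.1 FPKM in NC. Every antagomiR library was far above every NC library, and the spread within each group was small. The means stood in a ratio of 1.93, at a log2 fold change of 0.94 (standard error 0.05, limma adjusted p = 6.46e-05). P4ha3 (ENSRNOG00000017118, chr1:154628736-154663775), the least abundant alpha subunit, was at 57.9, 55.6 and 53.3 FPKM with the antagomiR, against 76.9, 69.2 and 64.4 FPKM in NC. It fell by 0.33 on the log2 scale (standard error 0.07, limma adjusted p = 0.0169), and its groups did not overlap. Its call was lost without antagomiR replicate 2 or 3 (limma adjusted p = 0.0621 and 0.0772) and without NC replicate 2 (0.0548).

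The opposite movements went with a changed make-up of the alpha subunit transcripts, while the summed level in the antagomiR libraries lay within the range of NC. The sum was 538.9 ± 6.96 FPKM with the antagomiR and 551 ± 30.1 FPKM in NC (SD, n = 3 each). P4ha2 made up 28.1%, 28.3% and 29.0% of it in the antagomiR libraries, against 14.4%, 14.3% and 14.7% in NC. P4ha1 made up 61.0% to 61.4% with the antagomiR and 72.0% to 73.5% in NC. The ratio of P4ha2 to P4ha1 was 0.461, 0.462 and 0.473 with the antagomiR, against 0.2, 0.195 and 0.203 in NC, and the ratios of the groups did not overlap. The partner P4hb averaged 600.4 ± 3.36 FPKM with the antagomiR and 581 ± 60.9 FPKM in NC and was not called (limma adjusted p = 0.686).

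**Figure D2:**
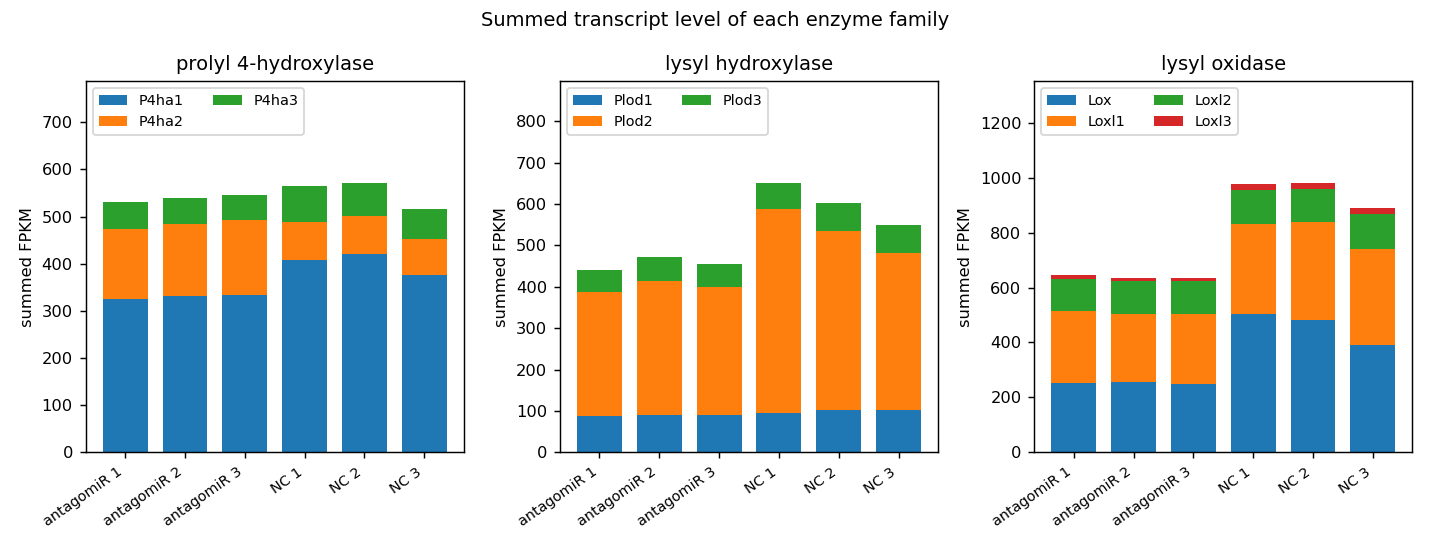
Summed FPKM of each enzyme family in every library, antagomiR libraries to the left of NC libraries, with stacked colours for the genes; axes start at 0. The prolyl 4-hydroxylase bars have similar heights with a wider P4ha2 band under the antagomiR, whereas the lysyl hydroxylase and lysyl oxidase bars are lower in all 3 antagomiR libraries.

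Among the lysyl hydroxylases the most abundant gene fell the furthest. Plod2 (ENSRNOG00000030183, chr8:93084513-93167255), which acts on the telopeptide lysines at the ends of the collagen molecule, was at 301, 323 and 309.5 FPKM with the antagomiR, against 493, 435 and 379 FPKM in NC. The antagomiR libraries all lay below NC, whose own values were spread widely with NC replicate 3 as the lowest. Plod2 fell by 0.48 on the log2 scale (standard error 0.10, limma adjusted p = 0.0122), and by 0.57 without NC replicate 3. The call of Plod2 did not hold without antagomiR replicate 1 or 3 (limma adjusted p = 0.0539 and 0.0536).

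Plod3 (ENSRNOG00000001417, chr12:19676386-19686960), which also transfers sugars to hydroxylysine, was at 52.7, 57.0 and 55.0 FPKM with the antagomiR, against 63.5, 65.7 and 68.1 FPKM in NC. The groups were apart, and here NC replicate 3 was the highest. Plod3 fell by 0.26 on the log2 scale (standard error 0.05, limma adjusted p = 0.0125), a call that was lost without antagomiR replicate 1 or 3 (0.0584 and 0.0589). The whole Plod3 feature lies within that of Ap1s1, and the strand setting of the counting was not given in the sources used here, so reads of the 2 genes may not be fully separated. Ap1s1 itself averaged 42.0 FPKM with the antagomiR and 42.6 FPKM in NC.

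Plod1 (ENSRNOG00000007763, chr5:158340490-158367620), which hydroxylates lysines within the helix, was at 87.4, 90.8 and 89.9 FPKM with the antagomiR, against 94.0, 101 and 103 FPKM in NC. The ranges did not overlap, but the log2 fold change of -0.15 was not called (standard error 0.05, limma adjusted p = 0.0801), with a 95% interval of the difference from -0.28 to -0.02. It was called as fallen without NC replicate 1 (limma adjusted p = 0.0401) and with median-ratio scaling or quantile normalization (0.0294 and 0.0279). The summed level of the 3 genes was 441, 471 and 454 FPKM with the antagomiR, against 650.4, 602 and 549.8 FPKM in NC. Plod2 held 68.1% to 68.6% of that sum with the antagomiR and 68.9% to 75.8% in NC, and the antagomiR libraries lay closest to NC replicate 3. The ratio of Plod2 to Plod1 was 3.44, 3.56 and 3.44 with the antagomiR, against 5.25, 4.30 and 3.67 in NC.

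Lox and Loxl3, both lysyl oxidase genes, had the lowest log2 fold changes of the 10. Lox (ENSRNOG00000014426, chr18:45967343-46041477), the founding member that crosslinks collagen and elastin, was at 252, 258 and 249 FPKM with the antagomiR, against 504, 483 and 389 FPKM in NC. The antagomiR libraries were tightly grouped and all were far below NC, where NC replicate 3 was again the lowest. Lox averaged 253 ± 4.29 FPKM with the antagomiR and 458 ± 60.9 FPKM in NC (SD, n = 3 each), a log2 fold change of -0.85 (standard error 0.10, limma adjusted p = 0.00116). Leaving out NC replicate 3 gave -0.96 (limma adjusted p = 6.73e-06).

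Loxl3 (ENSRNOG00000061373, chr4:115540685-115557466), the least abundant of the 10, was at 12.7, 12.3 and 12.9 FPKM with the antagomiR, against 21.8, 20.5 and 22.4 FPKM in NC. Its groups were widely separated with little spread in either, at a log2 fold change of -0.73 (standard error 0.06, limma adjusted p = 0.000217). Loxl1 (ENSRNOG00000008680, chr8:58692593-58716356), which is known for its role in elastin fibres, was at 263, 244 and 255 FPKM with the antagomiR, against 329, 356 and 352 FPKM in NC. All antagomiR libraries were below all NC libraries, and Loxl1 fell by 0.44 on the log2 scale (standard error 0.06, limma adjusted p = 0.00203). NC replicate 3 was not the lowest NC library for either gene.

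Loxl2 (ENSRNOG00000016758, chr15:44683880-44773067), which acts in basement membranes as well as on fibrillar collagen, was at 116, 122 and 119 FPKM with the antagomiR, against 121, 121 and 126 FPKM in NC. The groups overlapped, and the log2 fold change of -0.05 was not called (standard error 0.05, limma adjusted p = 0.498). The 95% interval, from -0.16 to 0.06, corresponds to ratios of 0.894 to 1.05, so the fall measured for Lox lies outside it. It was not called in any of the 17 alternative fits. The ratio of Loxl2 to Lox was 0.462, 0.472 and 0.475 with the antagomiR, against 0.241, 0.25 and 0.325 in NC. The fifth family member, Loxl4, was close to the filter at 1.60 ± 0.0634 FPKM with the antagomiR and 1.88 ± 0.0419 FPKM in NC and was not called (limma adjusted p = 0.218); with quantile normalization it was called at -0.29 (0.0412). The summed level of the 4 genes was 644, 636 and 635 FPKM with the antagomiR, against 976, 979.8 and 889.6 FPKM in NC.

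**Figure D3:**
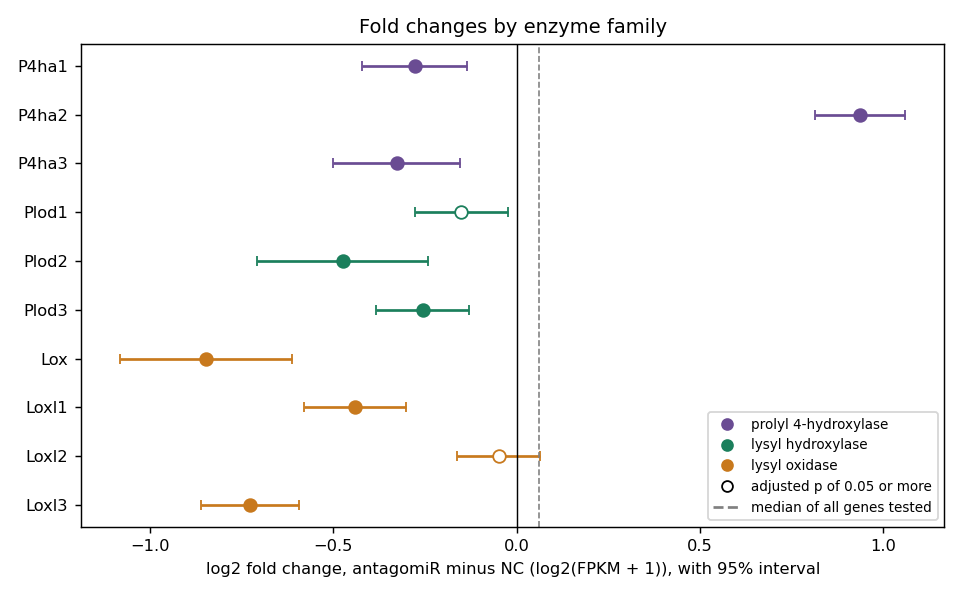
Log2 fold change of each gene, antagomiR minus NC, on the log2(FPKM + 1) scale with its 95% interval from limma; colours mark the 3 families, open circles genes that were not called, and the dashed line the median of all tested genes at 0.06. P4ha2 lies at 0.94 and the other 9 genes lie below 0, from -0.85 for Lox to -0.05 for Loxl2.

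The order of levels within each group also differed. With the antagomiR the means descended from P4ha1 (329.9 FPKM) through Plod2 (311), Loxl1 (254), Lox (253), P4ha2 (153), Loxl2 (119), Plod1 (89.4), P4ha3 (55.6) and Plod3 (54.9) to Loxl3 (12.6 FPKM). There the libraries of Loxl1 and Lox overlapped, as did those of P4ha3 and Plod3. In NC the means descended from Lox (458 FPKM) through Plod2 (435), P4ha1 (401), Loxl1 (345), Loxl2 (123), Plod1 (99.4), P4ha2 (79.7), P4ha3 (70.2) and Plod3 (65.8) to Loxl3 (21.6 FPKM). In NC the ranges of Lox, Plod2 and P4ha1 overlapped, as did those of P4ha2 with P4ha3 and of P4ha3 with Plod3. In mean level over all libraries these genes ranked from percentile 67.1 of the tested genes, for Loxl3, through 90.4, for Plod3, to 98.7, for Plod2.

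The profiles of Lox and P4ha2 were set against all tested genes by the Euclidean distance between log2(FPKM + 1) values over the 6 libraries, each gene centred on its mean. Nearest to Lox were Mid1 at 0.0789, Col14a1, a fibril-associated collagen gene, at 0.103 and Plekha7 at 0.11. Col14a1 averaged 251 ± 13.7 FPKM with the antagomiR and 457 ± 59.0 FPKM in NC. Nearest to P4ha2 were ENSRNOG00000069555 at 0.101, Trib1 at 0.108 and Fmod at 0.112. Fmod encodes fibromodulin, a collagen-binding proteoglycan, and averaged 24.9 ± 0.161 FPKM with the antagomiR and 11.8 ± 0.589 FPKM in NC.

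Lists of related genes were read against the same shares of all tested genes, 9.21% fallen and 17.5% risen. Of 14 tested genes for further collagen-folding enzymes and chaperones, 6 fell and 1 rose, and the median was -0.08 on the log2 scale. The prolyl 3-hydroxylase genes P3h1 and P3h2 fell by 0.36 and 0.75 on the log2 scale (limma adjusted p = 0.00326 and 0.00129), as did P3h4, a partner of lysyl hydroxylation, by 0.50 (0.0038), and the chaperone gene Hspa5 by 0.42 (0.00332). Of 9 export genes 2 fell and none rose, where 9.21% of all genes fell and 17.5% rose. The share called in either direction was below the 26.7% of all genes. Sec23a fell by 0.33 and Sec24d by 0.20, both coat components of the vesicles that leave the endoplasmic reticulum. The fallen export genes numbered 1 without antagomiR replicate 1, 2 or 3 or NC replicate 2. In those fits 5.55% to 6.5% of all genes fell. The fallen export genes numbered 6 without NC replicate 3 (with 1 risen), where 13.9% of all genes fell. They numbered 4 with median-ratio scaling or quantile normalization, where 12.3% and 15.5% of all genes fell. Of 5 tested procollagen-processing genes 3 fell, the proteinase genes Tll1 by 0.76, Adamts2 by 0.32 and Adamts14 by 0.28. Bmp1, the main C-proteinase, had a log2 fold change of 0.01 and was not called. Below the filter, Adamts3 averaged 0.894 FPKM with the antagomiR and 0.383 FPKM in NC, and Tll2 0.0188 and 0.0846 FPKM. The list had up to 1 risen gene in alternative fits that kept all 6 libraries. Sec24d and Adamts14 lost their calls without antagomiR replicate 1, 2 or 3 (limma adjusted p of 0.054 to 0.113 for Sec24d and 0.0787 to 0.118 for Adamts14), Sec24d also without NC replicate 2 (0.0857) and Adamts14 without NC replicate 1 (0.0685) and with no filter on low values (0.0618).

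The substrates of the enzymes moved in both directions, 6 of 14 falling and 3 rising, where 9.21% of all genes fell and 17.5% rose. The fallen ones numbered 3 without antagomiR replicate 1, 2 or 3, without NC replicate 2 or with no filter, and 8 without NC replicate 3. The share of all genes that fell was 5.46% to 6.5% in the former fits and 13.9% without NC replicate 3. Eln, which encodes elastin, averaged 329 ± 1.21 FPKM with the antagomiR and 924 ± 49.6 FPKM in NC, a deeper fall than any of the lysyl oxidases showed, at -1.49 on the log2 scale. Of the major fibrillar chains, Col1a1 averaged 4161 ± 185 FPKM with the antagomiR and 4609 ± 103 FPKM in NC, at a log2 fold change of -0.15 that was not called (limma adjusted p = 0.264). Col3a1 had -0.03 and was not called either (0.791). Col1a2 fell by 0.31 (limma adjusted p = 0.0267), a call that was lost without antagomiR replicate 1, 2 or 3 (0.105, 0.0856 and 0.137) and without NC replicate 2 (0.103), and also with no filter on low values (0.212) or a minimum of 0.1 FPKM (0.0553). Col6a1 and Col6a2 rose by 0.88 and 0.68, and Col12a1 fell by 0.67. In the list of Loxl4 and partners of lysyl oxidases, 2 of 7 rose and 1 fell. Postn, a matricellular protein gene, rose by 0.89 and Fmod by 1.02, while the elastic fibre gene Fbln5 fell by 0.63.

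Cofactor supply was described next, since the hydroxylases need iron, ascorbate and 2-oxoglutarate and the oxidases need copper. Of 6 tested copper genes 1 rose (2 without NC replicate 3), Slc31a2, by 0.81 (limma adjusted p = 0.00121), while the copper importer gene Slc31a1 and the copper pump gene Atp7a, which loads lysyl oxidases, had log2 fold changes of 0.06 and 0.15 and were not called. Of 10 tested genes for ascorbate, 2-oxoglutarate and iron supply, 3 rose and none fell, where 17.5% of all genes rose. The count was 6 without NC replicate 3, where 26.5% of all genes rose. It was 2 without any other library, where 10.1% to 15.2% of all genes rose. The iron transporter gene Slc11a2 rose by 0.83 and the glucose transporter gene Slc2a1 by 0.45. For Slc31a2, Slc11a2, Slc2a1 and Fth1, NC replicate 3 was the highest NC library, as it was for the leukocyte markers. It was the highest for 9 of the 11 genes found for this list and 6 of the 7 found for copper. The part of leukocyte content in these changes was not tested. Fth1, the ferritin heavy chain gene, was at 1226, 1158 and 1172 FPKM with the antagomiR, against 535, 586 and 1009.8 FPKM in NC. It rose by 0.80 and lost its call in every fit that left out a library other than NC replicate 3 (limma adjusted p of 0.0888 to 0.123), with no filter (0.0811) and with median-ratio scaling (0.0541).

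Genes of the hypoxia-inducible factor pathway were listed because P4ha1, P4ha2, Plod2 and Lox are known targets of that pathway in other settings. Of 8 tested pathway genes 5 rose (Egln3, Epas1, Hif1a, Hif1an and Vhl) and none fell, against 17.5% risen over all genes. The median change of the 8 was 0.28 on the log2 scale. The list pools the factors with genes of their control, such as Egln3, Hif1an and Vhl, so its count gives no direction of pathway activity. The risen count was 1 without antagomiR replicate 1, 2 without antagomiR replicate 2 or 3 or NC replicate 2, and 7 without NC replicate 3. It was 3 with median-ratio scaling and 2 with quantile normalization. Of all genes, 10.1% to 11.4% rose without antagomiR replicate 1, 2 or 3 or NC replicate 2. The share was 15.2% without NC replicate 1 and 26.5% without NC replicate 3. With median-ratio scaling it was 13.1% and with quantile normalization 11.8%. Epas1, which encodes HIF-2 alpha, averaged 52.5 ± 2.20 FPKM with the antagomiR and 17.6 ± 1.02 FPKM in NC, a log2 fold change of 1.53. Egln3, an oxygen-sensing prolyl hydroxylase gene, rose by 0.65 (limma adjusted p = 0.0108) and lost its call without antagomiR replicate 1 (0.0505). Egln3 averaged 1.75 FPKM with the antagomiR and 0.753 FPKM in NC, and its log2 fold change was 1.25 with a pseudocount of 0.01 and 1.29 by voom on recovered fragments. Hif1a rose by 0.26 (limma adjusted p = 0.0233) and lost its call without antagomiR replicate 1, 2 or 3 (0.0644, 0.0753 and 0.1), without NC replicate 2 (0.0679) and with median-ratio scaling or quantile normalization (0.0595 and 0.0714). Of 11 tested target genes outside the set 5 rose and 1 fell, among them Adm, a vasodilator peptide gene, by 0.77 and Mxi1 by 0.54. Their risen count was 2 without antagomiR replicate 1, 2 or 3 or NC replicate 2, 3 without NC replicate 1, with median-ratio scaling, with a minimum of 0.1 FPKM or with limma without a trend, and 7 without NC replicate 3, which also gave 2 fallen. Vegfa had a log2 fold change of -0.20 and was not called (limma adjusted p = 0.188). Of the 4 members named as known targets, P4ha2 rose and P4ha1, Plod2 and Lox fell. The fallen gene of the target list was Ankrd37, whose call was lost without antagomiR replicate 2 or 3 or without NC replicate 1 or 2 (limma adjusted p of 0.0574 to 0.0888).

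In the TGF-beta list, a pathway known to raise Lox and collagen transcription in fibroblasts, 5 of 12 genes fell and 3 rose. Over all tested genes 9.21% fell and 17.5% rose. The median log2 fold change of the list was -0.13. The list pools ligands, receptors, signal transducers and targets, so its count gives no direction of signalling. Tgfb3 averaged 256 ± 7.58 FPKM with the antagomiR and 680.0 ± 51.8 FPKM in NC. The receptor gene Tgfbr3 and the signal transducer gene Smad3 rose by 0.94 and 0.60. Of 5 tested hydroxylases of the same enzyme class with other substrates, 1 fell, P4htm, a transmembrane prolyl hydroxylase gene, by 0.56 (limma adjusted p = 0.00359).

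**Figure D4:**
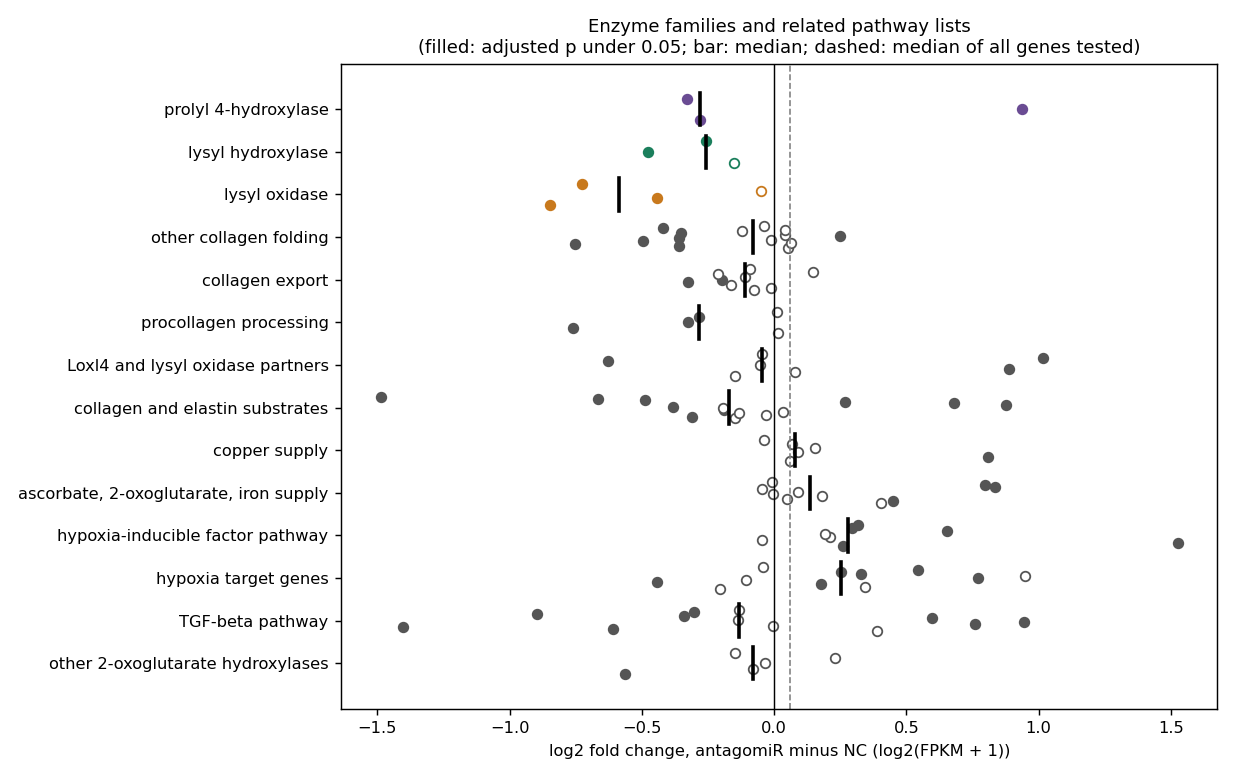
Log2 fold change of every tested gene in the 3 enzyme families (coloured) and in 11 related lists (grey), antagomiR minus NC on the log2(FPKM + 1) scale; filled points were called, black bars are list medians and the dashed line is the median of all tested genes. The lysyl oxidase median, at -0.58, lies furthest to the left, and those of the hypoxia-inducible factor pathway and its targets, at 0.28 and 0.25, lie to the right.

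Markers of other cell types and states moved alongside these results, where 17.5% of all tested genes rose and 9.21% fell. All 6 myofibroblast markers fell, with sums of 4284 to 4712 FPKM with the antagomiR and 6954 to 7753 FPKM in NC. Of 15 leukocyte markers 7 rose and none fell, with sums of 1005 to 1121 FPKM with the antagomiR and 151 to 770.2 FPKM in NC, and none of them was at 0. NC replicate 3 exceeded both other NC libraries for each of the 15. Without it all 15 were called as risen, in a fit that called 26.5% of all genes as risen. Smooth muscle and pericyte markers summed to 82.7 to 87.0 FPKM with the antagomiR and 113 to 125 FPKM in NC, with 4 of 5 tested markers falling. Of 7 tested cardiomyocyte markers 3 rose (Actc1, Myh7 and Myl2) and 1 fell, and the median was 0.33 on the log2 scale. Their sums were 345 to 408 FPKM with the antagomiR and 422 to 467 FPKM in NC, and most of each sum was the fallen Tnnt2, which averaged 254 FPKM with the antagomiR and 339 FPKM in NC. Endothelial markers summed to 5.17 to 5.84 FPKM with the antagomiR and 3.16 to 4.54 FPKM in NC, and Emcn was at 0 in every library. Of these 8 markers only 2 passed the filter, Tek and Egfl7, and only Tek was called, as risen. The 8 fibroblast markers all passed the filter, and 4 rose and 3 fell. The part of these differences in the results for the 10 enzymes was not tested. Without NC replicate 3, P4ha2 had a log2 fold change of 0.90, Loxl1 of -0.43, Loxl3 of -0.70 and Plod3 of -0.23, and each was called.

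**Figure D5:**
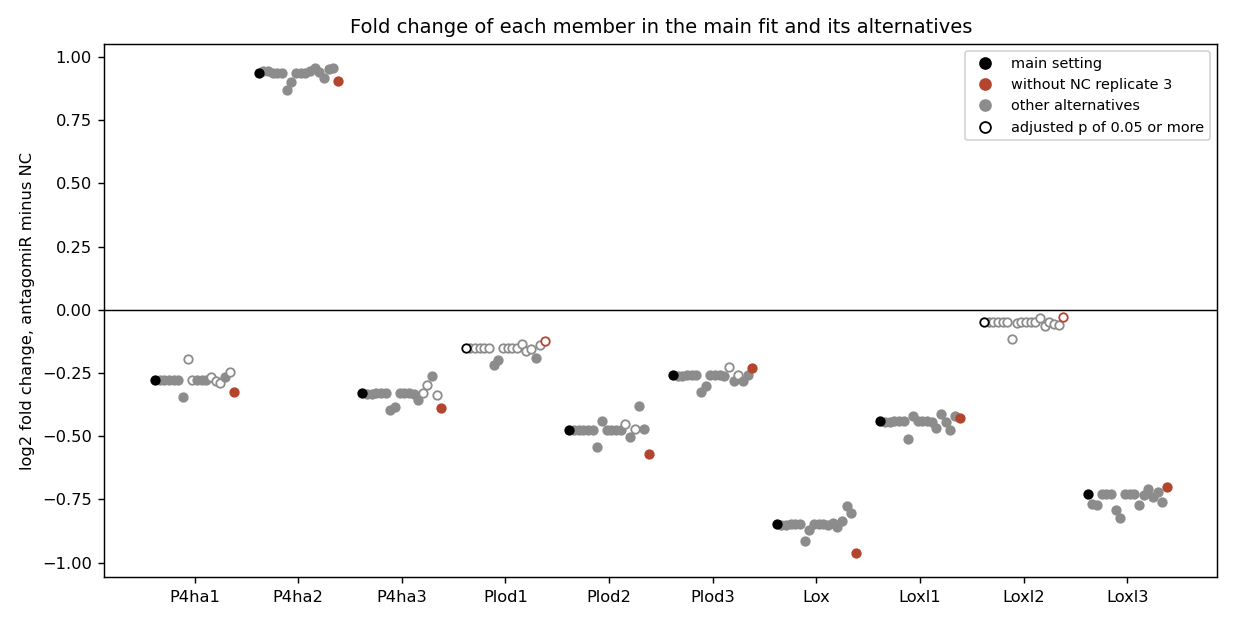
Log2 fold change of each of the 10 genes in the main fit (black), without NC replicate 3 (red) and in the other alternative fits (grey); open circles were not called. P4ha2 stays between 0.87 and 0.96, Lox between -0.96 and -0.78, and no gene changes direction, while the calls of P4ha1, P4ha3, Plod2 and Plod3 are lost in 6, 3, 2 and 2 of 17 fits.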

How the data were processed

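PolyA RNA was sequenced as paired reads of 150 bp, per the labels. Build mRatBN7.2 and, without versions, the tools HISAT2, HTSeq, cutadapt, FastQC and edgeR appear in the submitters' processing notes. The annotation release and the strand setting of counting are not given in the sources used here. Values were deposited as FPKM computed by the authors, with a column for each library. Whole fragments were recovered for 100% of the 20134 genes above 0 (all 6 values whole within 0.01), using genes under 400 bp to find library totals. The recovered fragments were used for depth and for an alternative fit.

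limma 3.58.1 in R 4.3.3 (lmFit, eBayes with a trend) was fitted to log2(FPKM + 1) of the 12024 genes averaging 1 FPKM or more, two-sided, Benjamini-Hochberg adjusted p under 0.05, and no replicate block. Log2 differences run antagomiR minus NC and understate changes of low genes. The scripts were tested on simulated data. Members and lists were chosen with earlier results of these data known. The naming rule took the 10 members, up to 4 genes of each list by smallest p and 5 preset genes (Loxl4, Eln, Col1a1, Col1a2, Col3a1). It also took the 3 nearest profiles to Lox and P4ha2. Further picks were Sec13 (log2 fold change -0.16), Creb3l1 (0.15), Ccs (0.07), Slc23a2 (0.40), Phyh (0.23), Tmlhe (-0.15) and Jmjd6 (-0.08), none of them called. Hif1an and Kdm3a rose by 0.32 and 0.25, and each lost its call in 6 of 17 fits. P4hb, Vegfa, Vhl, Adamts3, Tll2, Mir142, Ap1s1, Htra2 and the markers were named after their values were seen.

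The strand setting was not given, so reads of overlapping features may not be fully separated. Plod3 overlaps Ap1s1, Znhit1 (813 bp) and Mir702 (107 bp), and the ends of Loxl3 and Htra2 overlap (551 bp). Loxl1 overlaps ENSRNOG00000069897 (1439 bp), Lox overlaps Zfp474 (260 bp) and P4ha1 overlaps U7 (63 bp). Htra2 averaged 26.8 FPKM with the antagomiR and 26.7 FPKM in NC, above Loxl3 in both groups. Alternatives were pseudocounts of 0.1 and 0.01, no filter or a minimum of 0.1 or 5 FPKM, scaling by median ratios or quantiles, blocking on replicate number, limma with robust variances or no trend, voom on the recovered fragments, and leaving out each library. Listed genes such as Crtap, Pgk1 and the 3 erythroid markers were not analysed here. For 1 gene that the naming rule picked from the TGF-beta list, values are not reported here.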

Additional observations from a re-analysis of the deposited data

How the results depend on the processing

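In the 17 alternative fits, all planned, none of the 10 genes changed direction. P4ha2, Lox, Loxl1 and Loxl3 were called in all 17 and Loxl2 in none. The 8 called members became 4 to 9 and the 7 fallen members 3 to 8 when 1 library was left out. By family, the called prolyl 4-hydroxylases were 1 to 3 and the fallen ones 0 to 2, the called and fallen lysyl hydroxylases were 0 to 3, and the 3 fallen lysyl oxidases did not change in number. Over all genes these fits called 1883 to 4862, of which 1216 to 3185 risen and 667 to 1677 fallen. Each has fewer libraries, yet the highest of these counts belong to the fit that dropped NC replicate 3. After quantile normalization 1869 genes and 1 prolyl 4-hydroxylase, P4ha3, were called as fallen. The cause was not tested. With the replicate block 7 members and 2380 genes were called, and 1 prolyl 4-hydroxylase fell, since P4ha1 lost its call (limma adjusted p = 0.0691). The block also ended the calls of Sec24d (0.0918), Adamts14 (0.0837), Hif1a (0.0711), Hif1an (0.0559), Kdm3a (0.0698) and Col1a2 (0.17), and left 2 risen genes in each hypoxia list, 4 fallen substrates and 1 fallen export gene. Equal replicate numbers correlated at -0.16, -0.06 and -0.04 in their deviations, and the labels do not say what they share. Voom on recovered fragments called 3508 genes. For the other named genes, fits without 1 library left 274 results on the same side of the threshold, lost 34 calls and gained 4. The other settings left 538, lost 15 and gained 8. A further 4, not called, changed sign by more than 1 standard error under a scaling (Bmp1 under both, Slc31a1 and Col3a1). Smaller sign changes were counted among the results left, such as Ccs from 0.07 to -0.03 without 1 library. Each member rested on at least 814 fragments per library, against 3 to 8 for Mir142.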
